A study of Mus musculus with 8 samples.

Results

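Intermediate filaments are the rope-like fibres that give a cell and its nucleus mechanical strength, and the genes examined here encode 10 of their subunits: vimentin (Vim), nestin (Nes), desmin (Des), the keratins Krt7, Krt8, Krt18 and Krt19, and the nuclear lamins Lmna, Lmnb1 and Lmnb2. They were selected by symbol and not by a measured value, though with earlier results of these data known. All 10 were found among the 55471 genes of the count table, each under 1 identifier. RNA sequencing had been performed on SV-LECs, a mouse lymphatic endothelial line taken from the adventitia of the mesentery and immortalized with SV40. The cells grew in high-glucose DMEM with serum and antibiotics, and received either nothing further or TGFβ1 at 10 ng/ml, for 72 h. Each group held 4 libraries. The study describes these quadruplicates as technical replicates of a single line, so each p-value measures the spread between such samples and not between independently derived lines or animals.

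Vimentin and desmin are type III filaments that can assemble alone, whereas nestin is a large type VI protein that enters filaments made by others, vimentin above all. Keratins assemble only as pairs of a type I chain (Krt18 and Krt19 here) and a type II chain (Krt7 and Krt8), and Krt8 with Krt18 is the pair typical of simple epithelia. Lamins form the meshwork beneath the inner nuclear membrane. Lmna encodes the A-type lamins, which vary with tissue and stiffness, and Lmnb1 and Lmnb2 encode the farnesylated B-type lamins. In endothelial and other mesenchyme-derived cells vimentin is the usual cytoplasmic filament, and TGFβ1 is a classical inducer of contractile and matrix genes in such cells.

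Total counts per library lay between 18952504 and 26386941, at which 3 counts correspond to 0.113 to 0.162 CPM (counts-per-million of the TMM-normalized library size). All 8 textbook TGFβ target genes examined were higher in the treated libraries, for example Ccn2, a matricellular protein, at 219 ± 14.8 and 916 ± 51.4 CPM (SD, n = 4) and Smad7, the inhibitory Smad, at 26.7 ± 1.34 and 49.7 ± 1.25 CPM. Of all genes tested, 37.6% were called higher and 38% lower, which bears on this count and on those of markers below. The label of the line was borne out only in part by marker genes. Of 12 markers of lymphatic endothelium, Pdpn (342 ± 19.5 CPM in untreated cells), Flt4 (21.6 ± 1.23) and Kdr (11.6 ± 0.548) were present, but Tie1 had 0 counts in all 8 libraries and Pecam1, Cdh5, Prox1, Lyve1, Emcn and Vwf had between 0 and 18 counts summed over the 4 libraries of a group. The 12 summed to 357 to 394 CPM in untreated and 361 to 370 CPM in treated libraries, most of it Pdpn. Markers of mesothelium that are not filament genes were abundant: the summed level of Msln, Upk3b, Upk1b, Wt1 and Lrrn4 was 1907 to 2142 CPM in untreated and 785 to 898 CPM in treated libraries. All 5 of these non-filament markers fell, Upk3b from 538 ± 45.0 to 84.0 ± 9.67 CPM. The same marker list also held Krt8 and Krt18, which rose, and Krt19, which fell slightly with overlapping groups. The part of the non-filament markers in the keratin results was not tested.

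After TGFβ1, nestin, desmin, Krt8 and Krt18 transcripts rose, Krt7, Lmnb1 and Lmnb2 fell, and vimentin, Lmna and Krt19 moved by small amounts with overlapping groups. By the edgeR likelihood ratio test all 10 genes passed an FDR of 0.05, 6 higher and 4 lower. This share has to be read against the whole table, where 75.6% of the 13818 genes tested passed, 37.6% higher and 38% lower. The lowest and highest libraries of the 2 groups did not overlap for 7 of the 10 genes, compared with 69.8% of all genes tested. What follows therefore rests on the size and direction of each change and not on the number called. In bulk RNA a change in the number of cells that express a gene cannot be told apart from a change in RNA per cell.

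**Figure D1:**
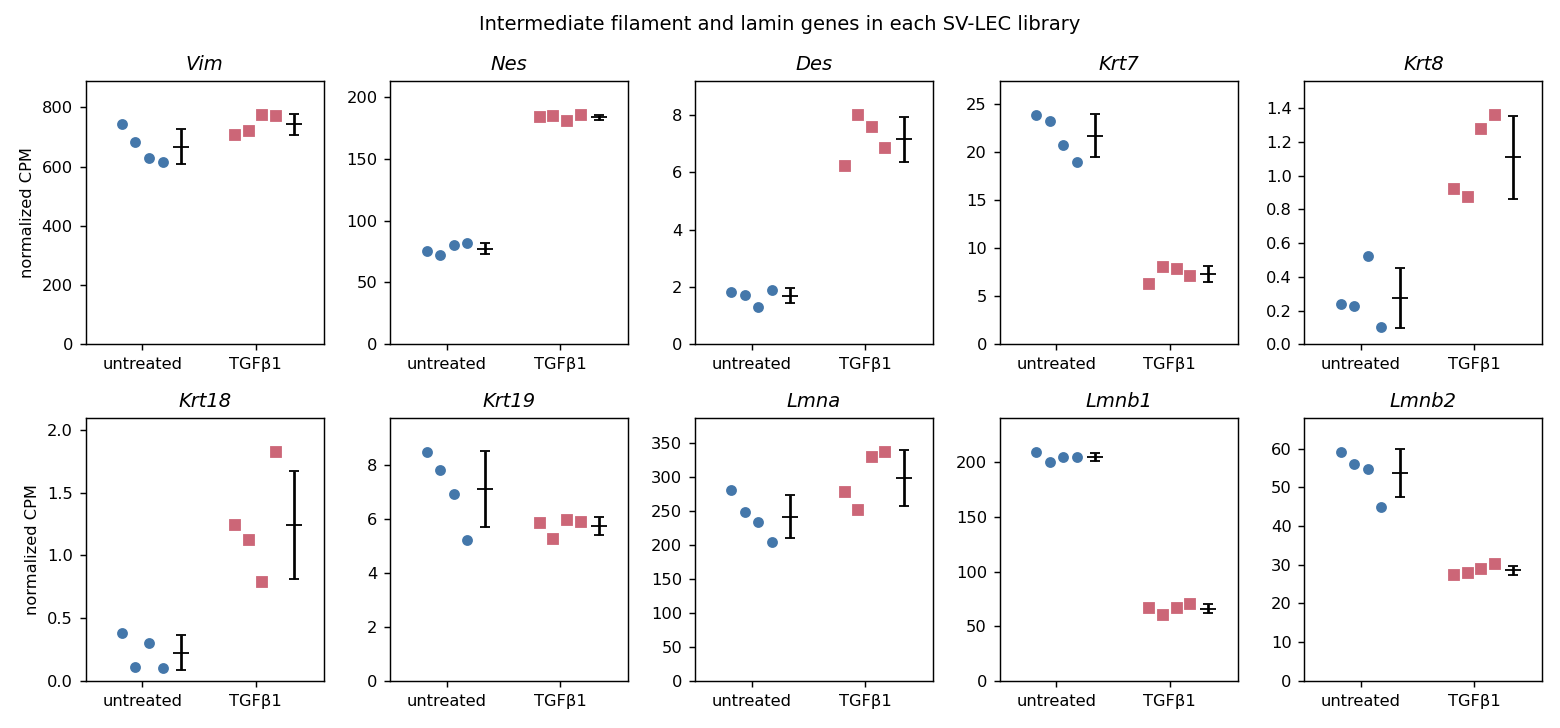
Normalized CPM of the 10 intermediate filament and lamin genes in each library, untreated (circles) and TGFβ1-treated (squares), replicates 1 to 4 from left to right and each gene on its own axis from 0. The black marks give the mean and SD of 4 libraries. Nes, Des, Krt8 and Krt18 lie higher and Krt7, Lmnb1 and Lmnb2 lower in every treated library, while Vim, Krt19 and Lmna overlap.

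Vim (ENSMUSG00000026728, chromosome 2, 13573927 to 13582826, plus strand; this and all positions below are GRCm38 gene spans in GENCODE M21) was the most abundant of the genes. The untreated replicates 1 to 4 gave 746, 683, 628 and 615 CPM and the treated replicates 706, 721, 773 and 772 CPM. Untreated replicate 1 exceeded treated replicates 1 and 2, so the groups overlapped. The means were 668 ± 59.6 and 743 ± 34.6 CPM (SD, n = 4), a log2 fold change of 0.15 (SE 0.06, FDR 0.0151). The call was lost with total-count scaling (FDR 0.178 at a log2 fold change of 0.09), when no filter on low counts was applied (FDR 0.0923), and when untreated replicate 3 (FDR 0.0729), untreated replicate 4 (0.0674), treated replicate 3 (0.0625) or treated replicate 4 (0.0539) was left out.

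Nes (ENSMUSG00000004891, chromosome 3, 87971078 to 87980451, plus strand) rose in every treated library. It gave 75.3, 71.9, 79.9 and 81.7 CPM in untreated and 184, 184, 181 and 185 CPM in treated libraries. No treated value came near the untreated range, and the treated libraries lay within a few CPM of each other. The rise was 2.38-fold, a log2 fold change of 1.25 (SE 0.05, FDR 1.45e-153). Set against its partner vimentin, per transcript length, nestin went from a ratio of 0.0417 ± 0.00566 to 0.0885 ± 0.00451 (SD, n = 4). This difference of 1.09 on the log2 scale had a two-sided exact permutation p of 0.0286, the smallest that 4 against 4 libraries allow.

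Des (ENSMUSG00000026208, chromosome 1, 75360329 to 75368579, plus strand), the filament of muscle cells, started from a low level. Untreated libraries gave 1.83, 1.73, 1.31 and 1.88 CPM, from 30 to 46 reads each, and treated libraries 6.22, 7.98, 7.58 and 6.83 CPM, from 115 to 176 reads. The groups were far apart, with a 4.25-fold rise (log2 fold change 2.09, SE 0.16, FDR 1.85e-45). Of 8 markers of striated muscle, 6 were too low to test, while Tnnt2, cardiac troponin T, rose from 0.318 ± 0.0844 to 9.22 ± 0.804 CPM and Ryr1 from 0.148 ± 0.0729 to 0.605 ± 0.142 CPM. Tnnt2 and Ryr1 passed the filter on low counts only through the treated libraries, where they are high, so only a rise could be seen in them. The summed level of the 8 markers was 0.434 to 0.659 CPM in untreated and 9.90 to 11.5 CPM in treated libraries, and its part in the desmin result was not tested. Desmin shares 3.95% of its 75-base stretches with an annotated antisense gene, Gm15179, which had 0 counts.

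The keratins divided. Krt7 (ENSMUSG00000023039, chromosome 15, 101411043 to 101430313, plus strand), a type II keratin of simple epithelia and mesothelium, fell from 23.8, 23.2, 20.8 and 19.0 CPM in untreated to 6.27, 8.08, 7.87 and 7.06 CPM in treated libraries. All treated libraries were below all untreated ones. The fall was 2.97-fold (log2 fold change -1.57, SE 0.10, FDR 1.01e-51). Krt7 shares 0.0563% of its 75-base stretches with an annotated antisense gene, Gm671, which had 0 counts.

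Krt19 (ENSMUSG00000020911, chromosome 11, 100140810 to 100148665, minus strand), a type I keratin with an unusually short tail, gave 8.48, 7.81, 6.94 and 5.22 CPM in untreated and 5.84, 5.26, 5.95 and 5.90 CPM in treated libraries. Untreated replicate 4 was below every treated library and the other untreated libraries were above them. The log2 fold change was -0.31 (SE 0.14, FDR 0.0310). It no longer passed without untreated replicate 1 (FDR 0.121) or 2 (0.107), without treated replicate 1 (0.0502) or 2 (0.0862), or with the replicate number as a block (0.0648).

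Krt8 (ENSMUSG00000049382, chromosome 15, 101996698 to 102004482, minus strand) and Krt18 (ENSMUSG00000023043, chromosome 15, 102028180 to 102032027, plus strand) were the rarest of the genes and both rose. Krt8 had 5, 6, 12 and 2 reads in untreated and 17, 18, 26 and 35 reads in treated libraries. The means were 0.273 ± 0.179 and 1.11 ± 0.246 CPM, and the log2 fold change was 1.99 (SE 0.35, FDR 5.35e-10). Krt18 had 8, 3, 7 and 2 reads in untreated and 23, 23, 16 and 47 reads in treated libraries. The mean was 0.226 ± 0.142 CPM before and 1.24 ± 0.432 CPM after treatment, a log2 fold change of 2.47 (SE 0.40, FDR 2.33e-11). Both passed the filter on low counts only through the treated libraries, where they are high, so their place among the 6 higher genes is not independent of it; without the filter both were still called. In both genes the lowest treated library lay above the highest untreated one in CPM. With so few reads the summed counts put the ratio at 4.06 (95% exact conditional interval 2.59 to 6.58) for Krt8 and at 5.76 (3.56 to 9.80) for Krt18, intervals that cover counting error only. Krt8 shares 22.0% of its 75-base stretches with the processed pseudogene Krt8-ps, which had 9 counts over the 8 libraries. Reads from these stretches may be missing or split, so how many Krt8 reads are affected is not known.

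Although 1 encodes a type II and the other a type I chain, Krt8 and Krt18 are neighbours. Their starts lie 23.7 kb apart, they are transcribed away from each other, and M21 places 0 genes wholly between the starts. The non-coding gene Gm36026, on the strand opposite to Krt8, shares 101 exonic bases with it and is not covered by that count. It had 2 counts over the 8 libraries. The bases just before the start are shown for the members whose groups did not overlap and for which at least 100 such bases were clear of annotated exons: Nes, Des, Krt8 and Krt18, which rose, and Lmnb2, which fell. Lmnb2 has 2 such starts, and the one at the M21 gene start is shown; the other, within the gene, held none of the motifs searched. The sequences are RefSeq's for GRCm38.p6, read 5′ to 3′ on the strand of the gene, and hold no base of an M21 exon. Those of Nes, Krt8, Krt18 and Lmnb2 end at the base before the M21 gene start, and that of Des ends at RefSeq's start, upstream of it. Capitals mark a GC box (GGGCGG or its complement) or the letters CAGACA or their complement, which contain the CAGA core of Smad-binding elements.
Nes, chr3:87970843-87971077, plus strand: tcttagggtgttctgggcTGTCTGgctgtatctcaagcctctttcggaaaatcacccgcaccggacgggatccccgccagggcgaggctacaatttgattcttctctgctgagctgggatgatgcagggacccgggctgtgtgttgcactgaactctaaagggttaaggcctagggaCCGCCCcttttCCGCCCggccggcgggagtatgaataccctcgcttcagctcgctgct
Des, chr1:75360042-75360291, plus strand: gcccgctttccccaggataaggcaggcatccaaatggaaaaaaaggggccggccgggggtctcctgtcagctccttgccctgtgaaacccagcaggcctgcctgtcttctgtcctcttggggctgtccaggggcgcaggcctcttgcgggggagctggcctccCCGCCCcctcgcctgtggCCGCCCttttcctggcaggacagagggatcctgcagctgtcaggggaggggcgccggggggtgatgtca
Krt8, chr15:102004483-102004592, minus strand: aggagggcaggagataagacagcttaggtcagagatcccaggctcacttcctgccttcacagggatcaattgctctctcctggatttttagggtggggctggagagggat
Krt18, chr15:102027966-102028179, plus strand: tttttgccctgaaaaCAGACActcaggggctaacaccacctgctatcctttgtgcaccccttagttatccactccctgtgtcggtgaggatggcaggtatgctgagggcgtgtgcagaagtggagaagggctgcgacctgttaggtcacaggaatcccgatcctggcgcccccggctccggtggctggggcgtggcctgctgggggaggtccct
Lmnb2, chr10:80918246-80918495, minus strand: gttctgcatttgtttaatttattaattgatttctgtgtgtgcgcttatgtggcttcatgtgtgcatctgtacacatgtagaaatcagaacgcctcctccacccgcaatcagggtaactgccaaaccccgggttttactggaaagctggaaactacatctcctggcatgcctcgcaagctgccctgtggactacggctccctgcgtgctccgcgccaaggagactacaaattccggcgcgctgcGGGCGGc

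Windows of 250 bases before RefSeq's start were at hand for 8 of the 10 members, and 5 motifs were searched in them on both strands. The windows of Vim, Krt7, Lmna and the inner Lmnb2 start lie within the M21 gene spans. Those of Nes, Krt8 and Krt18 reach into the spans in part, so windows can hold transcribed sequence. CAGACA was found in the windows of Nes, Krt7 and Krt18, of which the first and last rose and Krt7 fell, and in 17.1% of all 32851 promoter windows. A GC box was present before Nes, Des, Krt7, and 1 of 2 starts each of Lmnb2 and Lmna, and in 32.7% of all windows. A TATA box (TATAAA, 12.4% of all windows) was found only before Vim, CCAAT (33.8%) before Vim and 1 start of Lmna, and the AP-1 site TGANTCA (6.75%) before none of the 8. None of the 5 was found in the Krt8 window. These matches describe the letters and say nothing of binding.

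Both B-type lamins fell, whereas Lmna rose slightly with overlapping groups. Lmnb1 (ENSMUSG00000024590, chromosome 18, 56707813 to 56753424, plus strand) gave 209, 200, 205 and 204 CPM in untreated and 67.1, 60.1, 66.4 and 70.2 CPM in treated libraries. The spread within either group was small beside the distance between them. It fell 3.10-fold (log2 fold change -1.63, SE 0.05, FDR 7.30e-235). Lmnb2 (ENSMUSG00000062075, chromosome 10, 80901203 to 80918245, minus strand) gave 59.1, 56.1, 54.7 and 45.0 CPM in untreated and 27.5, 27.8, 28.8 and 30.2 CPM in treated libraries, which again did not overlap. Its fall was 1.88-fold (log2 fold change -0.91, SE 0.08, FDR 3.30e-30). Lmna (ENSMUSG00000028063, chromosome 3, 88480147 to 88509956, minus strand) gave 282, 249, 234 and 204 CPM in untreated and 279, 252, 330 and 337 CPM in treated libraries. Treated replicates 3 and 4 were above every untreated library, whereas replicates 1 and 2 lay inside the untreated range. The log2 fold change was 0.31 (SE 0.10, FDR 0.00333).

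Because the 3 lamins share a structure, their balance was also expressed per transcript length, as TPM, an abundance corrected for length and depth. The ratio of A-type to summed B-type lamin transcripts was 0.988, 0.915, 0.847 and 0.764 in untreated and 2.81, 2.75, 3.31 and 3.21 in treated libraries. It was thus below 1 in every untreated library and above 2 in every treated one. The means were 0.879 ± 0.0955 and 3.02 ± 0.282 (SD, n = 4), a 3.44-fold rise. The log2 fold changes of the genes in it were 0.31 for Lmna, -1.63 for Lmnb1 and -0.91 for Lmnb2. Within the B-type lamins, Lmnb1 fell further than Lmnb2, and their ratio moved from 4.78 ± 0.588 to 2.87 ± 0.141. For each of these ratios the two-sided exact permutation p was 0.0286, the smallest that 4 against 4 libraries allow. All 4 ratios compared had this p, which any groups of 4 libraries that do not overlap give. Of the single genes tested, 69.8% had groups that did not overlap in CPM. Benjamini-Hochberg adjustment leaves equal values unchanged, so the adjusted value of 0.0286 adds nothing. Lmna made up 46.7% ± 2.72 of lamin transcripts in untreated and 75.1% ± 1.75 in treated cells, Lmnb1 44.1% ± 3.09 and 18.5% ± 1.28, and Lmnb2 9.26% ± 0.505 and 6.46% ± 0.554. The summed lamin level was 465 ± 33.8 TPM in untreated and 353 ± 38.9 TPM in treated cells, with no overlap between the groups. These shares and sums were not tested.

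**Figure D2:**
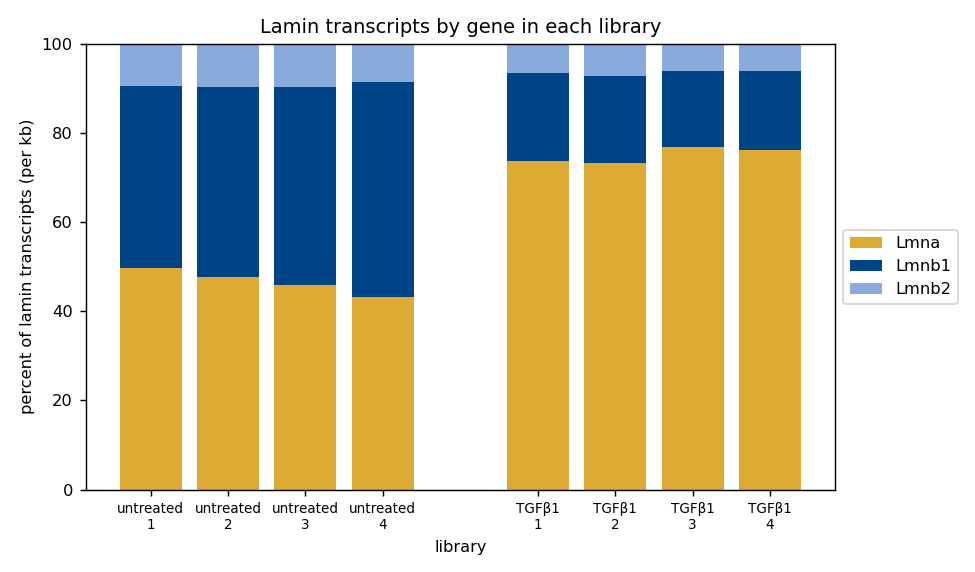
Share of lamin transcripts, in percent per kilobase of transcript, taken by Lmna, Lmnb1 and Lmnb2 in each of the 8 libraries. Lmna took 43.3% to 49.7% in untreated and 73.4% to 76.8% in treated libraries.

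Cell cycle genes moved together with the B-type lamins. Of 11 genes of proliferation and cell cycle arrest, 8 fell, most of all Aurkb (114 ± 1.29 to 25.1 ± 1.24 CPM), Mki67 (346 ± 14.8 to 96.9 ± 7.16 CPM) and Top2a (673 ± 18.1 to 199 ± 7.13 CPM), while the cell cycle inhibitors Cdkn1a (746 ± 48.3 to 1638 ± 56.0 CPM) and Cdkn2b (94.0 ± 10.8 to 136 ± 19.9 CPM) rose and Cdkn2a did not pass the test (log2 fold change -0.05, FDR 0.744). The median log2 fold change of the 11 was -1.35, beside -0.01 over all genes tested, of which 38% were lower. The part of proliferation in the lamin result was not tested.

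Ordered by level per transcript length in untreated cells, Vim came first at 864 ± 75.3 TPM, which placed it above 99.2% of the genes tested. Lmna (218 ± 28.3 TPM) and Lmnb1 (204 ± 2.79) followed with overlapping ranges, then Lmnb2 (43.1 ± 4.80) and Nes (35.7 ± 2.01), which overlapped as well. Krt7 (15.0 ± 1.53) and Krt19 (12.8 ± 2.51) also overlapped, and Des (1.58 ± 0.245), Krt18 (0.445 ± 0.277) and Krt8 (0.395 ± 0.257) came last. After TGFβ1, Vim (947 ± 37.9 TPM) and Lmna (265 ± 34.9) kept the first places, Nes (83.7 ± 1.10) stood above Lmnb1 (64.9 ± 4.06) and Lmnb2 (22.6 ± 0.850), and Des (6.60 ± 0.707) stood above Krt7 (5.00 ± 0.548). Krt19 was at 10.2 ± 0.563 TPM. Only Krt18 (2.42 ± 0.833) and Krt8 (1.58 ± 0.341), again the lowest, overlapped with a neighbour. Nestin went from above 57.9% to above 80.0% of the genes tested, and Lmnb1 from above 92.9% to above 74.4%.

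**Figure D3:**
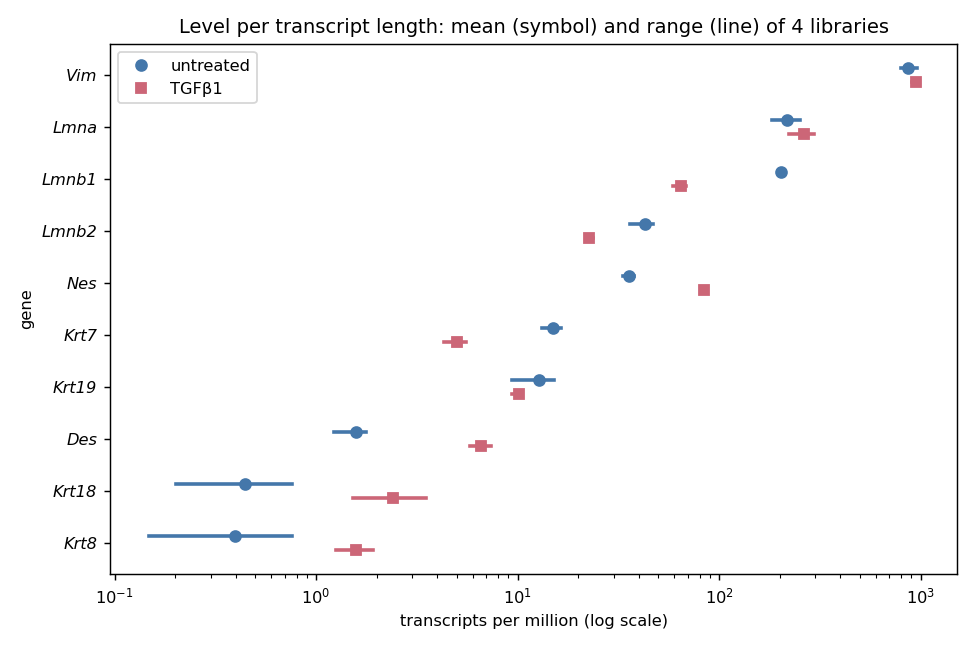
Level per transcript length of the 10 genes in untreated (circles) and TGFβ1-treated (squares) SV-LECs, in TPM on a log axis. Symbols are means and lines the range of 4 libraries. Nes moves from 35.7 to 83.7 TPM and Lmnb1 from 204 to 64.9 TPM, while Vim stays above all others.

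Among 39 genes of cytoplasmic filaments summed per length, vimentin made up 85.1% ± 0.634 of transcripts in untreated and 81.0% ± 0.705 in treated cells. Nestin held 3.55% ± 0.464 and 7.17% ± 0.305, and desmin 0.156% ± 0.0250 and 0.565% ± 0.0633. The sum itself was 1014 ± 82.2 and 1169 ± 37.5 TPM, without overlap between the groups. Synemin (Synm), a type VI filament protein like nestin that joins desmin and vimentin filaments, was named here after its values were seen. It gave 2.51, 2.93, 2.84 and 3.60 CPM in untreated and 26.5, 26.9, 26.0 and 26.8 CPM in treated libraries. This was a log2 fold change of 3.16 (SE 0.11, FDR 3.04e-256). Its antisense neighbours take up little of its sequence: 4.51% of its 75-base stretches are shared.

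Of the 32 other filament genes considered, 10 passed the filter on low counts. Beside 37.6% higher and 38% lower of all genes tested, 8 of these 10 were higher, 0 lower and 2, Krt10 and Krt14, not called. By the quasi-likelihood test and by DESeq2 these counts were also 8 and 0, and the lowest log2 fold change was 0.07. The filter helped to set this split: Nefh, Krt13, Bfsp2 and Krt15 passed it only through the treated libraries, where they are high, while Krt23, with 47 reads in untreated and 5 in treated libraries, was removed by it. Of the 6 that reached the filter's level in every library, 4 (Synm, Sync, Prph and Krt80) were higher. Sync shares 22.3% of its 75-base stretches with Rbbp4 on the opposite strand, which has 55331 counts. Without the filter 14 of the 32 were higher and 1 lower, beside 6385 higher and 5755 lower of the 27709 genes then tested. Genes with 0 counts in every library were left out of that run too. Krt10, Krt15, Krt23, Krt80, Prph and Sync are named here after their values were seen. The 3 strongest were close to absent before treatment. The neurofilament heavy chain Nefh had 3, 1, 0 and 1 reads in untreated and 71, 77, 68 and 97 reads in treated libraries, a counting ratio of 66.2 (95% exact interval 28.1 to 205). Krt13, a type I keratin of stratified epithelia, had 1 read in the 4 untreated and 17, 22, 18 and 25 reads in the treated libraries (ratio 86.7, interval 15.1 to 3466). The lens filament gene Bfsp2 had 6 reads in all untreated and 78 in all treated libraries (ratio 13.7, interval 6.04 to 38.6), and 8.08% of its stretches are shared with an antisense gene that has 2048 counts. A further 8 of the 32 genes had 0 counts in every library.

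The table holds 54 keratin genes, of which 20 had 0 counts in every library. The 4 member keratins summed to 28.7 ± 4.23 TPM in untreated and 19.2 ± 1.05 TPM in treated cells, without overlap. The 26 keratins listed, members included, summed to 96.5 ± 8.61 TPM in untreated and 95.9 ± 5.23 TPM in treated cells, and the groups overlapped. Most of this was Krt14, a type I keratin of basal epithelial cells, with 64.3% ± 2.03 and 66.7% ± 1.14 of keratin transcripts. Krt14 gave 39.8, 37.2, 37.3 and 33.9 CPM in untreated and 40.8, 35.2, 38.2 and 41.0 CPM in treated libraries, a log2 fold change of 0.07 (SE 0.07, FDR 0.353). It was picked out after its values were seen. Krt7 made up 15.6% ± 0.492 of keratin transcripts in untreated and 5.25% ± 0.846 in treated cells, and Krt19 13.2% ± 1.51 and 10.6% ± 0.358. For Krt8 the share was 0.406% ± 0.267 and 1.65% ± 0.327, and for Krt18 0.452% ± 0.258 and 2.51% ± 0.783. Type I over type II transcripts of the 4 member keratins changed from 0.851 ± 0.0953 to 1.93 ± 0.295 (two-sided exact permutation p = 0.0286, n = 4). With all listed keratins the ratio was 4.43 ± 0.162 and 7.67 ± 0.734.

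**Figure D4:**
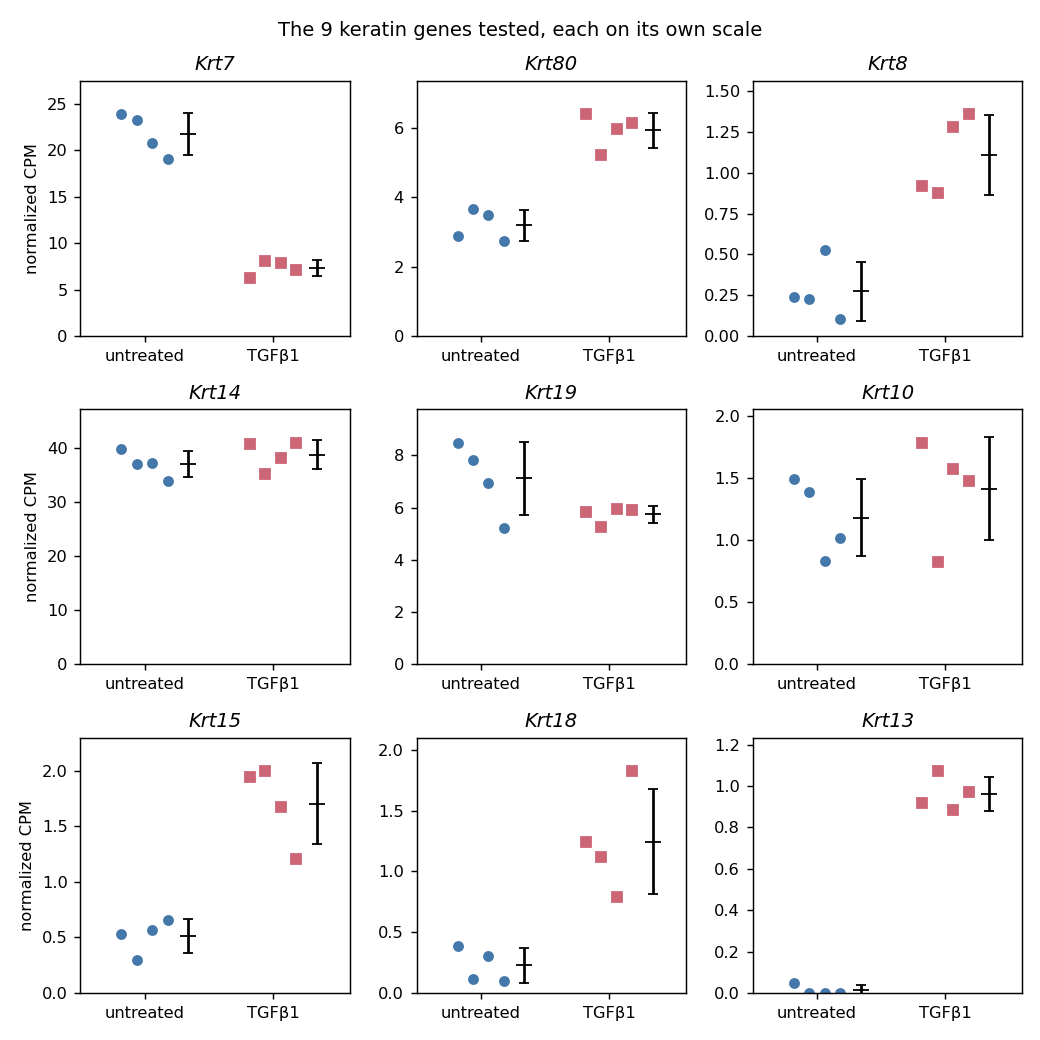
Normalized CPM of the 9 keratin genes that passed the filter on low counts, untreated (circles) and TGFβ1-treated (squares), each panel on its own axis from 0. Black marks give the mean and SD of 4 libraries. Krt7 falls, Krt80, Krt8, Krt15, Krt18 and Krt13 rise from levels under 4 CPM, and Krt14, the most abundant, stays at 33.9 to 41.0 CPM.

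Most markers of epithelium were as rare as Krt8 and Krt18 or rarer. Of 12 epithelial markers, 10 were too low to test, with Epcam at 5 and 14 and Cdh1, E-cadherin, at 22 and 42 counts summed over the untreated and treated libraries. Esrp2, a splicing regulator of epithelial cells, rose from 15.8 ± 0.589 to 34.1 ± 1.33 CPM (log2 fold change 1.11, FDR 1.64e-73), and Krt14 was the other marker tested. The summed level of the 12 was 49.6 to 57.0 CPM in untreated and 72.3 to 77.4 CPM in treated libraries, most of it Krt14 and Esrp2. Of 12 markers of fibroblasts and mural cells, 5 rose, for example the smooth muscle gene Cnn1 (6.53 ± 0.863 to 17.9 ± 1.13 CPM), 4 fell, for example Dcn, a matrix proteoglycan (312 ± 11.7 to 83.0 ± 6.48 CPM), and their sum overlapped (11028 to 14036 and 12233 to 13798 CPM). Among all genes tested, 37.6% were higher and 38% lower. Of 8 leukocyte markers, Csf1r (0.278 ± 0.124 to 1.38 ± 0.348 CPM) and Cd68 (6.96 ± 0.863 to 15.9 ± 0.858 CPM) rose and the other 6 were too low to test, the sum being 6.17 to 8.30 and 16.6 to 19.1 CPM. Csf1r, and Myh11 of the mural cell markers that rose, passed the filter only through the treated libraries, where they are high. The part of other cell types in the filament results was not tested.

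Filaments are tied to junctions, to the cytoskeleton and to chaperones by a set of linker and regulator proteins, of which 21 were in the table and all were tested. In treated cells 15 were higher and 6 lower (Pkp1 and Dsp passed the filter only through the treated libraries), beside 37.6% higher and 38% lower of all genes tested. The median log2 fold change of the 21 was 0.69, beside -0.01 for all genes. The 3 largest rises were those of Pkp1, Evpl and Dsp, which encode proteins that anchor filaments at junctions. Evpl (envoplakin) went from 2.90 ± 0.491 to 24.6 ± 1.83 CPM (log2 fold change 3.07, SE 0.12, FDR 9.10e-172). Dsp (desmoplakin) had 25 and 161 counts and Pkp1 (plakophilin 1) 12 and 306 counts over the untreated and treated libraries, counting ratios of 6.81 (95% exact interval 4.45 to 10.8) and 27.0 (15.2 to 52.8). Plec, the plakin that binds vimentin and desmin, was added after its values were seen. So was the plakin Macf1, which fell by 0.18 on the log2 scale (FDR 0.000157). Plec gave 74.2, 71.5, 69.0 and 58.0 CPM in untreated and 195, 171, 211 and 216 CPM in treated libraries (log2 fold change 1.54, SE 0.08, FDR 9.65e-76). Among genes whose groups did not overlap, the 3 largest falls were those of Klhl24, an adaptor for the turnover of keratins (135 ± 13.1 to 84.1 ± 4.81 CPM), Pkp4 (40.0 ± 2.54 to 26.9 ± 2.04 CPM) and the 14-3-3 protein gene Ywhaz (189 ± 5.69 to 158 ± 3.58 CPM).

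Around the lamins, all 29 genes of lamin-binding proteins, of the complex linking nucleus and cytoskeleton, and of prelamin processing were tested, and 11 were higher, 15 lower and 3 (Lemd3, Tmem201 and Fnta) not called. Of all genes tested, 37.6% were higher and 38% lower. The median log2 fold change of the 29 was -0.22. Lower were Nrm (nurim, 38.0 ± 2.36 to 13.2 ± 1.70 CPM; log2 fold change -1.52, SE 0.08, FDR 1.81e-75), Tmpo, which encodes the lamina-associated polypeptide 2 proteins (548 ± 13.4 to 214 ± 9.42 CPM; log2 fold change -1.36, SE 0.04, FDR 2.14e-211), and the nesprin gene Syne3 (33.8 ± 2.55 to 13.2 ± 1.77 CPM). Higher were the nesprin gene Syne4, though from only 82 and 161 counts in all, Tor1aip1, which encodes the lamin-binding protein LAP1 (83.1 ± 4.75 to 150 ± 6.22 CPM; log2 fold change 0.85), and Tor1b, a torsin of the nuclear envelope (86.5 ± 3.83 to 143 ± 7.67 CPM; log2 fold change 0.72). The next genes were picked after their values were seen. Lbr, the receptor that binds B-type lamins, went from 143 ± 2.64 to 72.8 ± 1.83 CPM (log2 fold change -0.97, FDR 4.45e-115). Zmpste24, the protease that matures prelamin A, went from 108 ± 1.96 to 147 ± 3.09 CPM (log2 fold change 0.45, FDR 1.06e-28). Fntb and Rce1, which act in farnesylation and cleavage of the prelamin tail, fell by 0.72 (FDR 1.79e-29) and by 0.87 (FDR 2.92e-40) on the log2 scale.

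**Figure D5:**
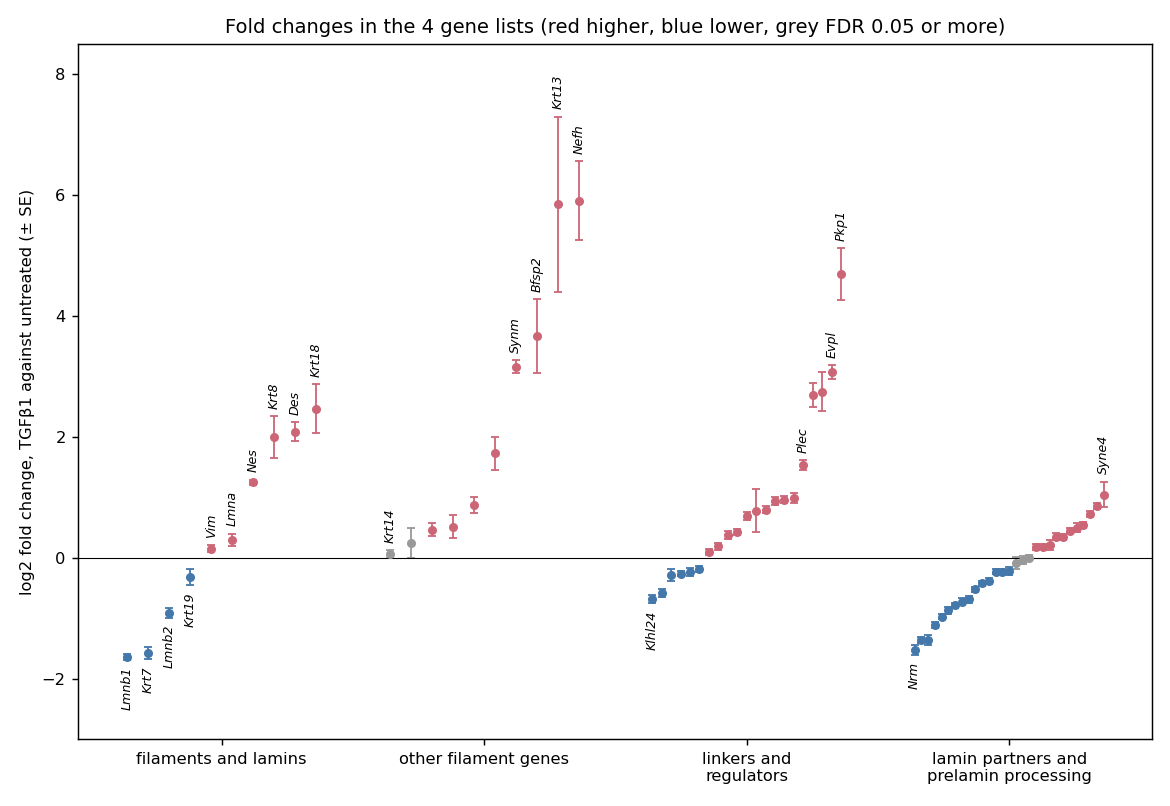
Log2 fold change of TGFβ1-treated against untreated SV-LECs with its standard error for every tested gene of the 10 filament and lamin genes, the other filament genes, the linkers and regulators, and the lamin partners, sorted within each list. Red is higher and blue lower at an FDR under 0.05, grey is not called, and some genes are labelled. Krt13 and Nefh, close to absent in untreated cells, have the highest values. Blue are 15 of the 29 lamin partners, and 38% of all genes tested were lower.

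The spread within the untreated group was not the same kind of scatter for every gene. For 6 of the 10 members (Vim, Krt7, Krt18, Krt19, Lmna and Lmnb2) the untreated library numbered 1 was the highest and the one numbered 4 the lowest, an arrangement found in 13.4% of all genes tested. It was noticed in the members and then counted in them, and is given as a description. These libraries also stood at the ends of the untreated group in how counts depended on GC content, with slopes of 0.06 and -0.06 log2 units per 10% GC, and the members' transcripts ranged from 46.5% (Vim) to 57.6% (Lmnb2) GC. The slopes were fitted to deviations from each group's mean. They therefore sum to 0 within each group by construction and cannot compare untreated with treated libraries. The part of GC content in this arrangement was not tested.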

How the data were processed

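RNA of untreated and TGFβ1-treated SV-LECs (10 ng/ml, 72 h, 4 libraries each) had been prepared with a stranded mRNA kit and sequenced as single 75 bp reads. The authors deposited raw read counts per gene for 55471 genes. The submitters' processing notes name bcl2fastq 2.20.0.422, STAR 2.7.3a, featureCounts 1.5.1 and GRCm38, and the counting options are not given in the sources used here. Reads that fit several genes may therefore be missing or split. Total counts were 18952504 to 26386941 per library. Libraries were grouped by their titles.

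Counts were analysed with edgeR 4.0.16 in R 4.3.3: filterByExpr, TMM scaling, and the generalized linear model likelihood ratio test that the study's methods name, in place of the quasi-likelihood test, which was run as an alternative. Benjamini-Hochberg FDRs cover all 13818 genes tested, and the threshold was 0.05. Standard errors are Wald errors of the negative binomial model. TPM used the longest protein-coding transcript of GENCODE M21. Ratios per length were compared on the log2 scale by exact permutation over libraries. On simulated counts the pipeline was checked for recovery of known changes. Alternatives were the quasi-likelihood test, DESeq2 1.42.0 and its size factors, total-count scaling, no filter, 1 CPM in 4 libraries, an FDR of 0.01, a prior count of 2, a replicate block and leaving out each library; a GC covariate, exon-union lengths and the sum over all listed keratins were added after seeing the data.

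The members and gene lists were chosen with earlier results of these data known. Named genes were all members, up to 3 genes per list and direction with the largest change among those called with groups that do not overlap, TGFβ targets (1 of which is not reported here), and genes sharing sequence with a member; exceptions are marked in the text. No promoter was printed for Krt7, whose window overlaps exons, and those of Krt19 and Lmnb1 were not used here.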

Additional observations from a re-analysis of the deposited data

Results flagged for a closer look

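In groups of 4 libraries, a library was singled out when its gap to the nearest other took up more of the group's range than Dixon's 95% critical value, which chance alone gives in about 1 of 20 groups. Of 150 groups examined, 8 met it, where 7.5 would be met by chance. Among the members only Krt19 did, with treated replicate 2 low (5.26 CPM, gap ratio 0.839). In its share of keratin transcripts, treated replicate 3 was high at 11.2% (0.898). The other 6 were Krt13 in untreated replicate 1, high through a single read (1), Bfsp2 in untreated replicate 2, high with 3 reads (0.898), Klhl24 in treated replicate 3, low (0.846), Syne3 in treated replicate 2, low (0.847), Myh11 in treated replicate 1, high (0.838), and Tnnt2 in untreated replicate 1, low (0.857).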

How the results depend on the processing

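No direction reversed in any alternative run; the GC covariate, whose slopes sum to 0 within each group, cannot bear on direction. Of the 10 members, Vim kept its call in 11 of 17 alternatives (log2 fold change 0.09 to 0.20) and Krt19 in 12 of 17 (-0.43 to -0.23). These 17 include the prior count of 2, which alters the fold change but not the test and so could lose no call. They also include the GC covariate, which was fitted to deviations within the same counts. The FDR of 0.01, at which neither Vim nor Krt19 was called, is not among them. The other 8 members kept their calls in all alternatives that tested them, 17 each, or 16 for Krt8 and Krt18. A minimum of 1 CPM in 4 libraries removes Krt8 and Krt18 and leaves 4 members higher. With that minimum, 4911 of all 12689 genes tested were higher and 4941 lower. At an FDR of 0.01, 5 members were higher and 3 lower, beside 4775 higher and 4789 lower of all 13818 genes tested. Total-count scaling moved the median log2 fold change of all genes from -0.01 to -0.07 and the split of calls to 4627 higher and 5899 lower, from 5198 and 5251. Without a filter the other filament genes gave 14 higher and 1 lower, since more genes are tested then. Over all 27709 genes of that run, 6385 were higher and 5755 lower. Leaving out single libraries gave log2 differences of 1.72 to 1.84 for the lamin A to B ratio, -0.77 to -0.65 for Lmnb1 to Lmnb2, 1.09 to 1.24 for type I to type II keratins and 1.03 to 1.16 for Nes to Vim. Replicate numbers did not pair the libraries: deviations of libraries with equal numbers correlated at -0.39 to -0.05, and 0 untreated libraries correlated best with their own number. With the replicate block the ratio differences were 1.78, -0.73, 1.18 and 1.09 with an exact sign-flip p of 0.125 each, the smallest 4 pairs allow. Krt8 and Krt18 rest on 2 to 47 reads per library, so their folds are known only within the counting intervals given.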
